A study of Homo sapiens with 15 samples.

Results

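The aldo-keto reductase family was followed in A549 cells exposed to fine particulate matter (PM2.5), through 7 genes: AKR1C1, AKR1C2, AKR1C3, AKR1B1, AKR1B10, AKR1A1 and AKR7A2. The members were found by their symbols and are 7 of the 58735 genes of the deposited table, with 1 entry each. A549 is an established human line from a lung adenocarcinoma. RNA was sequenced in 15 libraries from 5 groups of 3 libraries. The groups CDSUM, CDWIN, CQSUM and CQWIN received PM2.5 samples carrying those codes at 100 µg/mL, and the control group received an equal volume of the solvent dimethyl sulfoxide (DMSO), in every case for 24 h. The sources used here do not spell out the codes. All groups are the same unmodified line, and the data describe 1 tumour line and no tissue. The treatment labels number the PM2.5 within each group, 1 number per library, while DMSO carries no number. Whether replicate libraries stem from separate cultures or from separate PM2.5 samples is not stated. The p-values therefore reflect only how far these libraries differ among themselves.

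Aldo-keto reductases are cytosolic enzymes that use the cofactor NADPH to reduce aldehydes and ketones to alcohols. Their substrates include sugars, steroids, prostaglandins, retinal, products of lipid peroxidation and quinone-forming metabolites of polycyclic aromatic hydrocarbons, the last of which makes the family a subject of particle toxicology. Several AKR1C genes and AKR1B10 are known targets of the transcription factor NRF2, and A549 cells, which lack working KEAP1, the protein that holds NRF2 down, are known for high levels of them.

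The libraries held 17583532 to 19216323 counted reads each. CQWIN library 1 stood apart, with 4.32% of its reads in the 7 genes against 2.28% and 2.42% in the other CQWIN libraries, and the calls and fold changes of the CQWIN group over DMSO are given again without it further on. The labels call the cells type II alveolar epithelial cells. Of 9 markers of that type, SFTPA1 and SFTPA2 were listed at 0 in all libraries, SFTPC reached at most 0.147 FPKM (counts normalized for gene length and sequencing depth), and ABCA3, at 4.97 to 10.6 FPKM, gave most of the summed level. That sum was 5.91 to 9.39 FPKM across the PM2.5 libraries and 9.29 to 11.57 FPKM across the DMSO libraries. The 6 general epithelial markers, led by KRT8 and KRT7, summed to 1292.62 to 1782.03 FPKM in the PM2.5 libraries and 2418.57 to 3217.88 FPKM in DMSO. At 0 in every library were also 2 of 7 leukocyte markers, PTPRC and CD3E, whose list summed to 3.49 to 7.97 FPKM in the PM2.5 libraries and 4.41 to 5.94 FPKM in DMSO, and 1 of 8 fibroblast or endothelial markers, COL1A2, whose list summed to 0.58 to 1.27 FPKM in the PM2.5 libraries and 0.89 to 1.55 FPKM in DMSO. The epithelial sums did not overlap between PM2.5 and DMSO libraries, and their part in the results below was not tested. The 6 epithelial genes did not all fall. By the test described below, 4 were called lower and 2 higher in CDSUM, in CDWIN and in CQSUM. In CQWIN 3 were called lower and 1 higher. Of all genes tested, 31.2% were called lower in CDSUM, 23.3% in CDWIN, 18.8% in CQSUM and 15.8% in CQWIN. The shares called higher were 15.3%, 18.4%, 13.7% and 11.6% in the same order. With bulk RNA, fewer cells of a kind and less RNA per cell cannot be told apart.

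The AKR1C genes lie side by side on chromosome 10 and are so alike that their reads are hard to assign, which bears on every value given for them. On GRCh38, AKR1C1 occupies chr10:4963253-4983283 on the + strand, AKR1C2 chr10:4987400-5018031 on the - strand and AKR1C3 chr10:5035354-5107686 on the + strand. Their coding sequences, taken from 1 principal transcript per gene in GENCODE release 29, are each 972 bases long. AKR1C1 and AKR1C2 were identical at 98.05% of positions and differed at 19. AKR1C1 and AKR1C3 were identical at 91.46%, and AKR1C2 and AKR1C3 at 91.05%. The 90 coding bases with the densest differences between AKR1C1 and AKR1C2 are shown because a read is assigned to 1 of these genes by such bases. The window covers coding bases 73 to 162. In AKR1C1 it is chr10:4963517-4963528 and chr10:4965914-4965991 on the + strand, in AKR1C2 chr10:5003752-5003763 and chr10:5001604-5001681 on the - strand, and in AKR1C3 chr10:5094517-5094528 and chr10:5096410-5096487 on the + strand, in each gene the end of coding exon 1 and the start of coding exon 2. Capitals mark the 19 positions at which the 3 genes are not all alike, 10 of which separate AKR1C1 from AKR1C2.
AKR1C1: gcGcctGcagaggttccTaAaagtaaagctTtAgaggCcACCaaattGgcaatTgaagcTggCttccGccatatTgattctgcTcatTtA
AKR1C2: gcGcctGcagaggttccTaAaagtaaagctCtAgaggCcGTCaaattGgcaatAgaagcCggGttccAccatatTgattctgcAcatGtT
AKR1C3: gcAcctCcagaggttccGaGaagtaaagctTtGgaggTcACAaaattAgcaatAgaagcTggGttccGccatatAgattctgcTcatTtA

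Outside this window the same pair shared a run of 189 coding bases with no difference. Of all 50-base windows of the AKR1C1 coding sequence, 51.79% also occurred in AKR1C2, against 19.13% of the 100-base windows and 4.98% of the 150-base windows. How reads with several matches were counted is not stated. The counts of AKR1C1 and AKR1C2 are therefore uncertain as single genes, and their sum is given beside them below. AKR1B1 (chr7:134442350-134459284, - strand) and AKR1B10 (chr7:134527592-134541408, + strand) share 76.18% of aligned coding positions and no 50-base window. AKR1B10 shares 85.89% with its neighbour AKR1B15, and 19.73% of its 50-base windows. AKR1A1 (chr1:45550543-45570049, + strand) and AKR7A2 (chr1:19303965-19312146, - strand) share 47.78% of aligned coding positions.

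The start regions of AKR1C1 and AKR1C2 are nearly copies of each other as well. Whether this bears on their changes was not tested. Promoter windows from RefSeq on GRCh38.p14 reach from 250 bases before a gene's start to 50 bases after it. They were matched by symbol for 6 of the 7 genes, in 9 windows, and AKR1B10 is named only. The AKR1C1 window is chr10:4963165-4963464 on the + strand and the AKR1C2 window chr10:5003808-5004107 on the - strand. Over 292 aligned bases they were 98.6% identical. Capitals mark the 4 substituted bases, and in AKR1C1 also 4 bases with no partner in AKR1C2.
AKR1C1: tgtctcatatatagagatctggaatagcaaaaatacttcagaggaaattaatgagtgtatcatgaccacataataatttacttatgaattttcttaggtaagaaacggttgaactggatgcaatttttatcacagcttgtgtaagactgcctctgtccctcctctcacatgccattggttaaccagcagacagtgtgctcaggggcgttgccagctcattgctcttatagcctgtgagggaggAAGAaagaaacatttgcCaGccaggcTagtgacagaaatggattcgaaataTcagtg
AKR1C2: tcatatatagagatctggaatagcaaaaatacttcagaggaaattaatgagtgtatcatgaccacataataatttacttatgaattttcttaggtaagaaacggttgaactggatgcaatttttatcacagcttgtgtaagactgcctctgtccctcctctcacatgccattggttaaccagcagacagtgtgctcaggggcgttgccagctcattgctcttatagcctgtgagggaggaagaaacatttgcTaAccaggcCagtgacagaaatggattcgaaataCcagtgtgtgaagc

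The core letters TGACNNNGC of the antioxidant response element, which NRF2 binds, were searched on both strands. They occurred in 13.3% of all 35116 promoter windows and, among the members, in AKR7A2 alone. The letters GCGTG, the core of the xenobiotic response element bound by the aryl hydrocarbon receptor, occurred in 36.5% of the windows and among the members in AKR1B1 and AKR7A2. The AKR7A2 window is shown with these matches in capitals because AKR7A2 is the member that was not called in any comparison with DMSO. It is chr1:19312095-19312394 on the - strand and holds 3 matches of the first motif and 1 of the second, none overlapping another. A match of letters is no evidence of binding, and a window without one says nothing of sites elsewhere.
AKR7A2: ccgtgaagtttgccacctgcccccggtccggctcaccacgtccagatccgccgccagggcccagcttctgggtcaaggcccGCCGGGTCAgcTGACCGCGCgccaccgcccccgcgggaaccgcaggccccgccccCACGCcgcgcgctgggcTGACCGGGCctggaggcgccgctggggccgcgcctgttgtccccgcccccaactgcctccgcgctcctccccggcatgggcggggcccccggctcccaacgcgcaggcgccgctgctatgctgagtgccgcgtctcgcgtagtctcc

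The 5 AKR1C and AKR1B genes rose in all 4 PM2.5 groups, by 0.69 to 1.32 on the log2 scale, AKR1A1 rose in CDSUM and CDWIN, and AKR7A2 was not called in any. Counts are given as CPM, the count scaled to a library size that is the same for all libraries after correction by TMM, the trimmed mean of M-values. All 15565 genes tested went through edgeR's quasi-likelihood test, and those with an adjusted p (Benjamini-Hochberg) below 0.05 were called. Against DMSO, 6 of 7 members were called higher in CDSUM, where 15.3% of all genes tested were. In CDWIN 6 of 7 were called higher against 18.4% of all genes, in CQSUM 5 of 7 against 13.7%, and in CQWIN 5 of 7 against 11.6%. No member was called lower in any of them, while 31.2% of all genes were in CDSUM, 23.3% in CDWIN, 18.8% in CQSUM and 15.8% in CQWIN. Single libraries moved these counts over all genes by more than 1.5 times. In CDSUM 4858 genes were called lower and 2381 higher, but 3020 lower without CQWIN library 2 and 3647 higher without CQWIN library 3. In CQSUM 2136 were called higher, but 3471 and 3959 without CQWIN library 2 or 3, and 1118, 1129 and 1377 without CQSUM library 2, DMSO library 1 or DMSO library 3, while the 2927 called lower became 1842 without CQWIN library 2 and 1931 without CQSUM library 2. In CQWIN 1804 were called higher, but 3866 without CQWIN library 3 and 864, 905 and 1158 without CQWIN library 1, DMSO library 1 or DMSO library 3, while the 2460 called lower became 1246 without CQWIN library 2. AKR1C1, AKR1C2, AKR1C3, AKR1B1 and AKR1B10 were called higher in all 4 comparisons, as were 5.93% of all genes tested. The 4 comparisons share the same DMSO libraries.

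The members' median log2 fold change was 1.04 in CDSUM, where the median of all genes tested was -0.25. It was 1.10 in CDWIN with -0.11 for all genes, 0.78 in CQSUM with -0.0042 for all genes and 1.04 in CQWIN with 0.02 for all genes. DESeq2 size factors raised the median of all genes by 0.15 in CDSUM and shifted the split of calls there to 2971 higher and 3612 lower, from the edgeR scaling's 2381 and 4858. In CQSUM the same scaling gave 2635 higher and 2406 lower against 2136 and 2927. The members' calls stayed as they were under those factors.

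**Figure D1:**
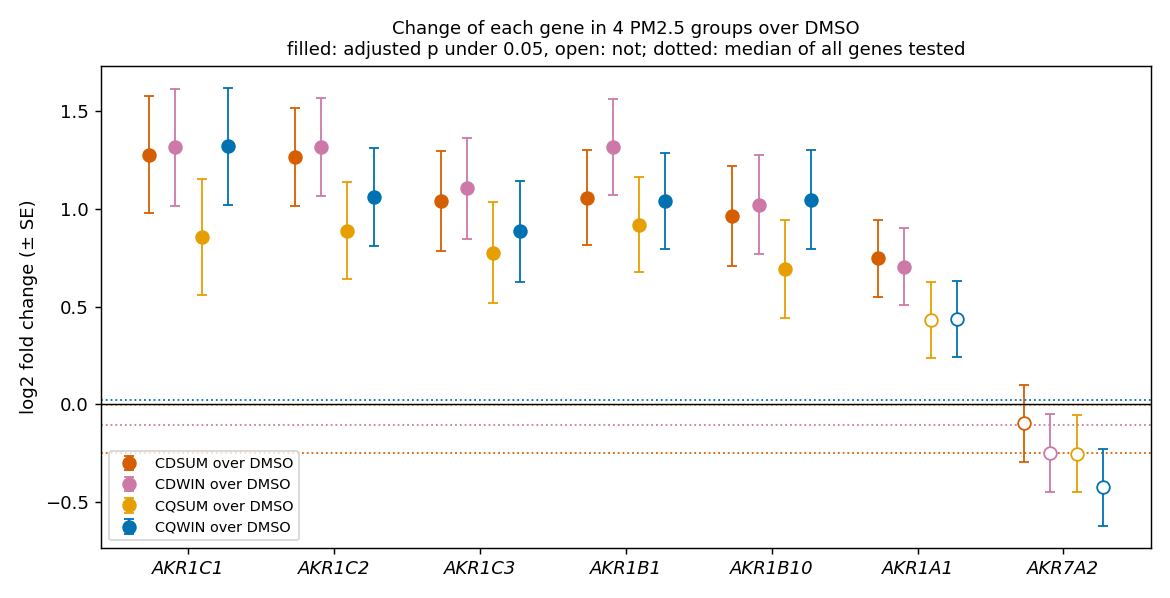
The vertical axis is the log2 fold change over DMSO with its SE for each of the 7 genes along the horizontal axis, in the order CDSUM, CDWIN, CQSUM and CQWIN, and dotted lines are the medians of all genes tested. The AKR1C and AKR1B points lie between 0.69 and 1.32 and are filled (adjusted p under 0.05), the AKR1A1 points are filled in CDSUM and CDWIN, and the AKR7A2 points are open and below 0.

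AKR1C1, which inactivates progesterone, had 2030, 1939 and 2661 CPM in the CDSUM libraries, 2658, 2047 and 2102 CPM in CDWIN, 1494, 1834 and 1626 CPM in CQSUM and 3990, 1298 and 1543 CPM in CQWIN, against 953, 983 and 801 CPM in DMSO. Every PM2.5 library lay above every DMSO library, and CQWIN library 1 stood far above the other CQWIN libraries. The log2 fold change was 1.28 ± 0.30 (SE) in CDSUM with an adjusted p of 0.0027, 1.31 ± 0.30 in CDWIN with 0.00236, 0.86 ± 0.30 in CQSUM with 0.0346, and 1.32 ± 0.30 in CQWIN with 0.00401.

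AKR1C2, which reduces dihydrotestosterone to a weaker androgen, was the most abundant AKR1C gene by count. It had 7436, 7308 and 8231 CPM in CDSUM, 8288, 7609 and 7919 CPM in CDWIN, 5029, 7114 and 5563 CPM in CQSUM and 10500.0, 4888 and 4582 CPM in CQWIN, against 3137, 3409 and 3021 CPM in DMSO. The groups again did not overlap with DMSO. AKR1C2 rose by a log2 fold change of 1.26 ± 0.25 in CDSUM (adjusted p = 0.000991), 1.32 ± 0.25 in CDWIN (0.000785), 0.89 ± 0.25 in CQSUM (0.0118) and 1.06 ± 0.25 in CQWIN (0.00496). The gene overlaps AL391427.1, an antisense gene at a mean of 2.37 CPM in DMSO, and since the strand of the counting is not stated, reads of the 2 cannot be told apart.

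AKR1C3, which makes testosterone from androstenedione and forms a prostaglandin F, had 4747, 3723 and 4640 CPM in CDSUM, 4725, 4413 and 4578 CPM in CDWIN, 2991, 4400 and 3531 CPM in CQSUM and 6179, 3066 and 2530 CPM in CQWIN, against 2110, 2398 and 1872 CPM in DMSO. All PM2.5 libraries lay above the DMSO libraries, CQWIN library 3 by little. The log2 fold changes were 1.04 ± 0.26 in CDSUM (adjusted p = 0.00377), 1.10 ± 0.26 in CDWIN (0.00269), 0.78 ± 0.26 in CQSUM (0.0273) and 0.88 ± 0.26 in CQWIN (0.0165).

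The proportions among the near-identical AKR1C genes were compared within libraries. For each AKR1C2 read there were 0.287 ± 0.0315 AKR1C1 reads in CDSUM, 0.285 ± 0.0309 in CDWIN, 0.282 ± 0.0214 in CQSUM, 0.327 ± 0.0578 in CQWIN and 0.286 ± 0.0195 in DMSO (SD, n = 3 each). All 4 PM2.5 groups overlapped with DMSO, and CQWIN library 1 was the highest, at 0.38 against 0.304 in the highest DMSO library. For AKR1C3 the same ratio was 0.571 ± 0.0647 in CDSUM, 0.576 ± 0.00521 in CDWIN, 0.616 ± 0.0201 in CQSUM and 0.589 ± 0.0376 in CQWIN, against 0.665 ± 0.0424 in DMSO. The CDWIN libraries lay below all DMSO libraries, and the other groups overlapped with them. With the reads of AKR1C1 and AKR1C2 summed before the fit, the log2 fold change was 1.27 in CDSUM, 1.32 in CDWIN, 0.88 in CQSUM and 1.12 in CQWIN. With all 3 summed it was 1.19, 1.25, 0.85 and 1.05 in the same order, and each of these sums was called in edgeR's test. The order of the 3 genes among themselves remains uncertain for the shared sequence given above.

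AKR1B1, aldose reductase, which turns glucose into sorbitol, gave the most reads of the family. It had 11088, 10476 and 10936 CPM in CDSUM, 13840.0, 13050.0 and 11997 CPM in CDWIN, 8865, 11627 and 9042 CPM in CQSUM and 16199, 8815 and 7116 CPM in CQWIN, against 4746, 6122 and 4746 CPM in DMSO. The lowest PM2.5 library, CQWIN 3, still lay above the highest DMSO library. The level was 2.08-fold that of DMSO in CDSUM (log2 1.06 ± 0.24, adjusted p = 0.00244), 2.49-fold in CDWIN (1.32 ± 0.25, 0.0007), 1.89-fold in CQSUM (0.92 ± 0.24, 0.00863) and 2.06-fold in CQWIN (1.04 ± 0.24, 0.0049). By count AKR1B1 ranked 2 among all genes in CDSUM, 3 in CDWIN and 5 in CQSUM and in CQWIN, against 12 in DMSO.

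AKR1B10, an aldose reductase-like enzyme with high activity towards retinal, had 5548, 5233 and 5536 CPM in CDSUM, 5797, 5248 and 5948 CPM in CDWIN, 3738, 5475 and 4312 CPM in CQSUM and 9134, 3861 and 4305 CPM in CQWIN, against 2944, 2936 and 2490 CPM in DMSO. No PM2.5 library reached down to the DMSO libraries. The log2 fold change was 0.96 ± 0.25 in CDSUM (adjusted p = 0.00541), 1.02 ± 0.25 in CDWIN (0.00395), 0.69 ± 0.25 in CQSUM (0.0427) and 1.05 ± 0.25 in CQWIN (0.00585). Per AKR1B1 read there were 0.502 ± 0.00365 AKR1B10 reads in CDSUM, 0.439 ± 0.0499 in CDWIN, 0.457 ± 0.0303 in CQSUM and 0.536 ± 0.087 in CQWIN, against 0.542 ± 0.0718 in DMSO (SD, n = 3 each).

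AKR1A1, aldehyde reductase, a general reducer of aldehydes in most tissues, was far less abundant. It had 182, 171 and 175 CPM in CDSUM, 193, 171 and 149 CPM in CDWIN, 127, 164 and 134 CPM in CQSUM and 198, 128 and 101 CPM in CQWIN, against 97.2, 119.6 and 98.5 CPM in DMSO. Only the CQWIN libraries overlapped with DMSO. AKR1A1 rose in CDSUM (log2 0.75 ± 0.20, adjusted p = 0.00538) and in CDWIN (0.70 ± 0.20, 0.00806). The values in CQSUM, 0.43 ± 0.20 with an adjusted p of 0.0994, and in CQWIN, 0.44 ± 0.20 with 0.103, did not pass the test.

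AKR7A2, which reduces succinic semialdehyde and the dialdehyde of aflatoxin, had 96.9, 73.2 and 69.3 CPM in CDSUM, 71.0, 86.3 and 58.2 CPM in CDWIN, 73.5, 75.1 and 66.3 CPM in CQSUM and 65.4, 78.6 and 46.9 CPM in CQWIN, against 72.7, 104 and 79.4 CPM in DMSO. All 4 groups overlapped with DMSO. The log2 fold change was -0.10 ± 0.20 in CDSUM, -0.25 ± 0.20 in CDWIN, -0.25 ± 0.20 in CQSUM and -0.42 ± 0.20 in CQWIN, with adjusted p-values of 0.708, 0.326, 0.349 and 0.118. A p that misses the threshold does not show equal levels. AKR7A2 was called lower under a fit without the length trend in CDWIN (-0.48) and in CQWIN (-0.50), and in CQWIN also with a replicate block (-0.44). Its log2 fold change lay below that of AKR1A1 by 0.84 in CDSUM, 0.95 in CDWIN, 0.68 in CQSUM and 0.86 in CQWIN, a difference given as a description.

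**Figure D2:**
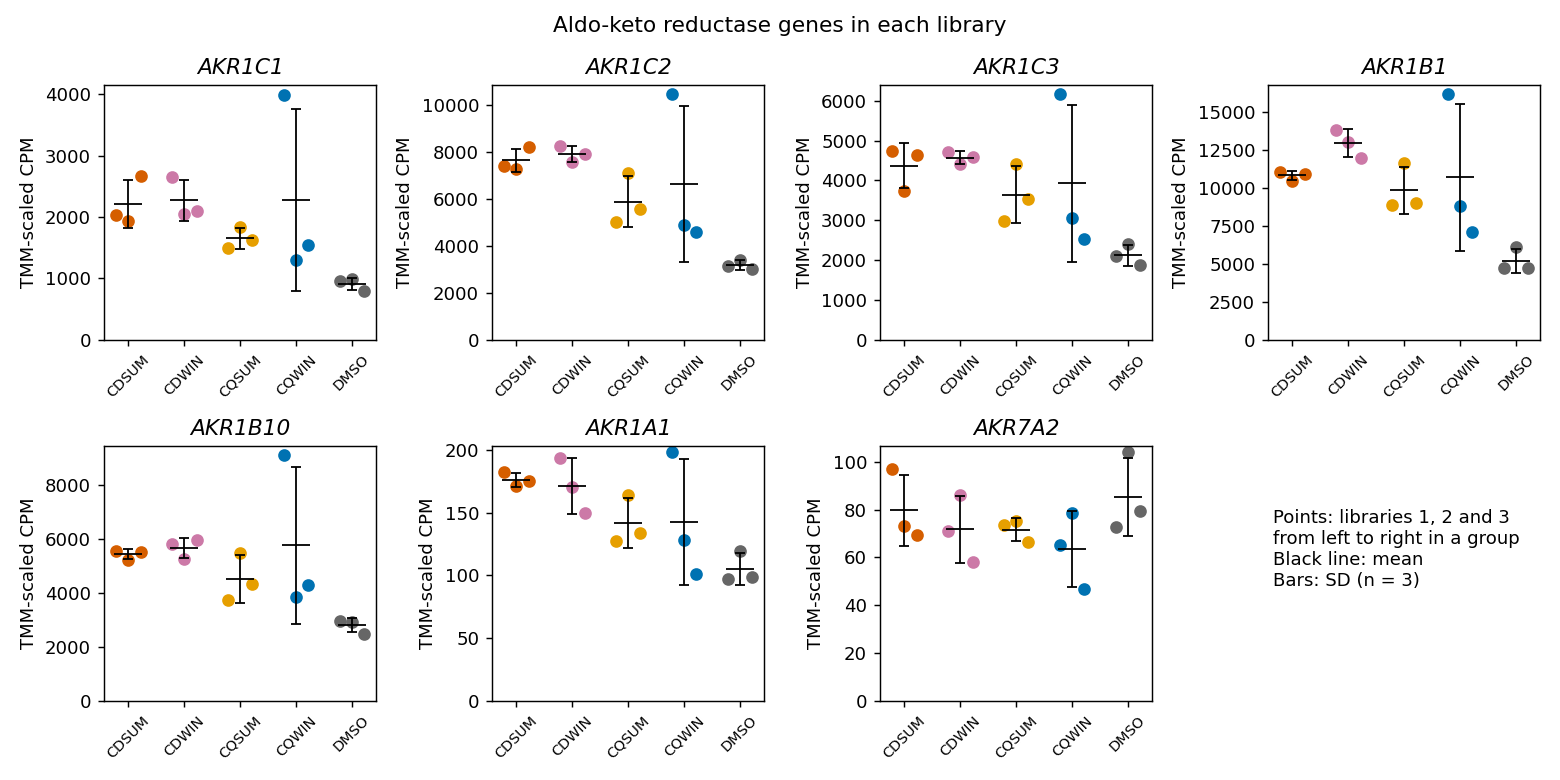
Each panel plots the TMM-scaled CPM of 1 gene by group, with 1 point per library, the mean and the SD (n = 3), and DMSO at the right. In the AKR1C and AKR1B panels all PM2.5 points lie above the DMSO points, CQWIN library 1 is the highest point, and AKR7A2 shows overlapping groups.

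All 3 libraries lay above all 3 DMSO libraries for 6 of 7 members in CDSUM, against 21.3% of all genes tested. The same held for 6 of 7 in CDWIN (22.9% of all genes), 6 of 7 in CQSUM (23.7%) and 5 of 7 in CQWIN (16.7%). For each of the 7 genes the spread within a group was widest in CQWIN, where the highest library was 1.68 times (AKR7A2) to 3.07 times (AKR1C1) the lowest. In the other 3 PM2.5 groups it was 1.06 to 1.48 times, and in DMSO 1.13 to 1.43 times.

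The 7 genes together made up a sizeable share of the counted RNA. They took 2.96 ± 0.248% of all counted reads in CDSUM, 3.10 ± 0.147% in CDWIN, 2.60 ± 0.249% in CQSUM and 3.01 ± 1.14% in CQWIN, against 1.52 ± 0.086% in DMSO (SD, n = 3 each). CQWIN library 1 reached 4.32% (95% Wilson interval 4.31 to 4.33%, which covers counting error only), and the other CQWIN libraries 2.28% and 2.42%. No DMSO library exceeded 1.60%. AKR1B1 gave 35.2% of the family's reads in CDSUM, 38.5% in CDWIN, 38.3% in CQSUM and 36.7% in CQWIN, against 36.0% in DMSO. AKR7A2 gave 0.26%, 0.214%, 0.282% and 0.243% in the same groups, against 0.59% in DMSO, with no overlap between the PM2.5 and the DMSO libraries. A share of the family's reads falls when the other members rise, and the CPM of AKR7A2 itself overlapped with DMSO in every group.

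**Figure D3:**
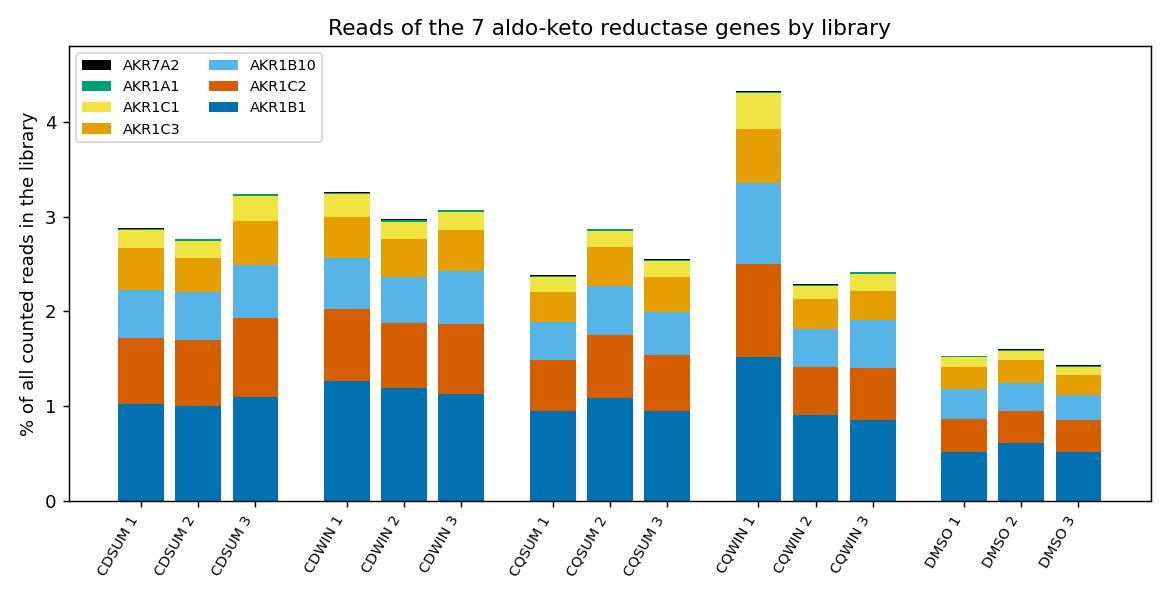
Bars give the percent of all counted reads in each of the 15 libraries that belong to the 7 genes, stacked by gene, with the DMSO libraries at the right. The PM2.5 bars run from 2.28% to 4.32% and the DMSO bars from 1.43% to 1.60%. AKR1B1 and AKR1C2 are the tallest segments.

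Levels between genes were compared per length with the deposited FPKM. In CDSUM the order was AKR1B10 at 3234 ± 91.7 FPKM, AKR1B1 at 3070 ± 88.3, AKR1C2 at 1229 ± 59.9, AKR1C3 at 999 ± 123, AKR1C1 at 261 ± 41.9, AKR1A1 at 58.6 ± 2.16 and AKR7A2 at 46.5 ± 9.15 (SD, n = 3). In DMSO AKR1B10 led with 1499 ± 172 FPKM before AKR1B1 with 1336 ± 258, AKR1C2 with 463 ± 46.3, AKR1C3 with 440 ± 70.3, AKR1C1 with 97.6 ± 13.0, AKR7A2 with 45.1 ± 10.5 and AKR1A1 with 31.6 ± 5.05. AKR1B10 and AKR1B1 differed by less than their spread in DMSO, as did AKR1C2 and AKR1C3. By group mean AKR1A1 stood above AKR7A2 in each PM2.5 group and below it in DMSO. In CQSUM library 1 (40.7 against 41.3 FPKM) and CQWIN library 2 (41.2 against 44.3 FPKM) AKR1A1 was the lower of the pair. In CDWIN and CQSUM AKR1B1 stood first, at 3483 ± 248 and 2664 ± 396 FPKM, before AKR1B10 at 3192 ± 135 and 2560 ± 480. In CQWIN the order was that of CDSUM, with AKR1B10 at 3228 ± 1663 FPKM and AKR1B1 at 2864 ± 1321. In CQSUM and in CQWIN AKR1B10 and AKR1B1 differed by less than their spread.

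The order near the top rests on the length assigned to a gene. The deposited lengths of AKR1B1 and AKR1C3, 3660 and 4532 bases, cover all annotated exons, and their principal transcripts are 1409 and 1807 bases long. Per kilobase of the principal transcript, AKR1B1 stood at 7689 TMM-scaled CPM in CDSUM and 3694 in DMSO, above AKR1B10 at 3421 in CDSUM and 1755 in DMSO, and AKR1C3 moved above AKR1C2 in all 5 groups. Within a gene, comparisons between groups do not depend on its length in this way.

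The PM2.5 groups were also set against each other. No member was called in CDWIN against CDSUM (8.42% of all genes were), in CQWIN against CQSUM (0.0193%), in CDSUM against CQSUM (13.9%) or in CDWIN against CQWIN (0.0128%). Nor was any called for the interaction, in which the WIN minus SUM change of the CQ codes is subtracted from that of the CD codes, where 2.02% of all genes were. The members' log2 fold changes ran from -0.15 to 0.26 in CDWIN over CDSUM and from -0.17 to 0.46 in CQWIN over CQSUM. They ran from 0.14 to 0.42 in CDSUM over CQSUM, with all 7 members higher in CDSUM, and from -0.03 to 0.28 in CDWIN over CQWIN. With SEs of 0.19 to 0.30 for a single difference, a difference of this size could not be told from none. The unadjusted p was above 0.05 for every member in all 5 contrasts, and DESeq2 called no member either.

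The authors' deposited table, which holds its own tests of 8 comparisons, gave 6 members with a higher level at an adjusted p under 0.05 in CDSUM, 6 in CDWIN, 6 in CQSUM and 5 in CQWIN over DMSO, and none lower. Of all genes with an adjusted p in the authors' deposited table, 15.3% were higher in that sense in CDSUM, 13.0% in CDWIN, 11.6% in CQSUM and 5.24% in CQWIN. In the authors' deposited table AKR1A1 passed in CQSUM with a log2 fold change of 0.48 and an adjusted p of 0.0155. In CDSUM against CQSUM the authors' deposited table had 3 members higher, AKR1A1 at 0.37, AKR1C1 at 0.48 and AKR1C2 at 0.43 on the log2 scale, where 3.24% of all genes were.

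The calls in CQWIN and CQSUM depended on single libraries. In CDSUM and CDWIN 6 members were called whichever library was left out. Without CQWIN library 1, the CQWIN log2 fold change over DMSO was 0.64 for AKR1C1, 0.57 for AKR1C2, 0.61 for AKR1B1 and 0.55 for AKR1B10, all still called, and 0.40 for AKR1C3, with an adjusted p of 0.15. It was 0.12 for AKR1A1 and -0.44 for AKR7A2, called in neither case. These 4 of 7 members called higher compare with 5.4% of all genes tested in that fit, and the members' median was 0.55 with 0.01 for all genes. Summed as above, AKR1C1 and AKR1C2 stood at 0.59 without that library and all 3 AKR1C genes at 0.52, both called. Without CQWIN library 2 or library 3, AKR1A1 was called in CQWIN at 0.65 and 0.81. With CQWIN library 1 left out, CDWIN exceeded CQWIN for 5 members, AKR1A1 (0.58), AKR1B1 (0.70), AKR1C1 (0.68), AKR1C2 (0.75) and AKR1C3 (0.71), each called, as were 6.68% of all genes in that direction. Over both directions 1882 genes were called in that fit, against 2 with all libraries. In CQSUM, AKR1B1 alone was called without CQSUM library 2, at 0.79. AKR1B10 in CQSUM lost its call in most fits with a library left out. Leaving out CQWIN library 2 or 3 moved the CQSUM values too, by 0.19 for the median of all genes, and AKR1A1 was then called at 0.62. The filter and the library scaling were computed anew in each fit with a library left out, and the cause of this shift was not tested.

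**Figure D4:**
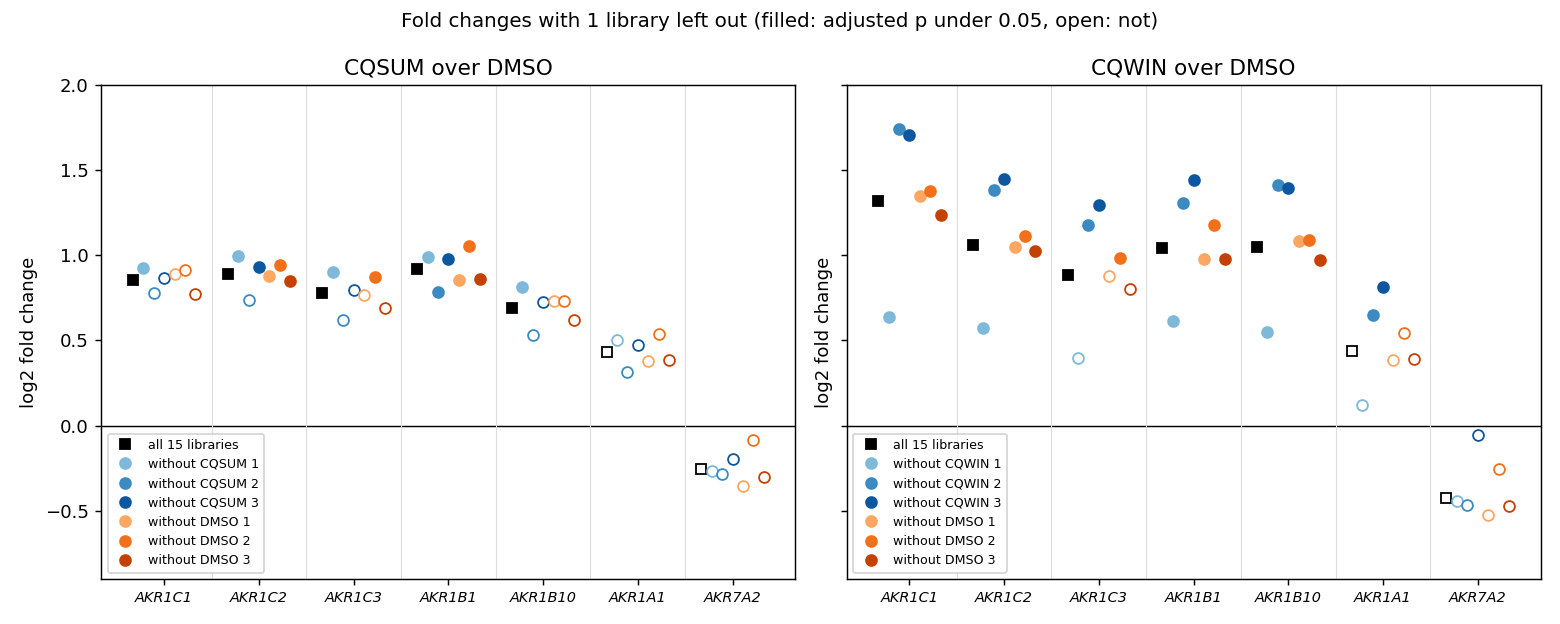
The vertical axis is the log2 fold change over DMSO for CQSUM (left) and CQWIN (right), for all 15 libraries (square) and with 1 library of either group left out (circles), filled where the adjusted p was under 0.05. For CQWIN without library 1, the points of AKR1C1, AKR1C2, AKR1B1 and AKR1B10 fall to between 0.55 and 0.64 and stay filled, and in CQSUM the AKR1B10 circles are mostly open.

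Dependences of expression on gene length and on GC content differed between the groups. Across genes, the slope of a library's log2 deviation per doubling of gene length was -0.148 to -0.0777 in CDSUM, -0.0928 to -0.0587 in CDWIN, -0.0911 to 0.0532 in CQSUM and -0.0922 to 0.177 in CQWIN, against 0.092 to 0.187 in DMSO. The slope per 10 percentage points of GC content was 0.155 to 0.211 in CDSUM, -0.216 to 0.136 in CDWIN, -0.179 to -0.112 in CQSUM and -0.21 to -0.119 in CQWIN, against 0.136 to 0.332 in DMSO. With the length trend alone removed, 6 members were called in CDSUM, 7 in CDWIN, 4 in CQSUM, where AKR1B10 was not (0.53), and 7 in CQWIN. The 7 in CDWIN and in CQWIN include AKR7A2, which was called lower. Over all genes, that fit called 3097 higher and 2379 lower in CDSUM and 3236 and 2747 in CDWIN. It called 2620 and 2671 in CQSUM, and 2329 and 2395 in CQWIN. With trends of GC content and gene length removed, CQSUM kept AKR1B1 at 1.12 and gained AKR1A1 at 0.71, while AKR1C1 (0.76), AKR1C2 (0.65), AKR1C3 (0.44) and AKR1B10 (0.32) were no longer called. In CQWIN AKR1B1, AKR1B10, AKR1C1 and AKR1A1 were called in that fit, and AKR1C2 (0.83) and AKR1C3 (0.55) were not. In CDSUM and CDWIN the same 6 members were called in that fit. Over all genes, the fit without both trends called 3259 higher and 2736 lower in CDSUM and 2856 and 2249 in CDWIN. It called 1598 and 1469 in CQSUM, and 1315 and 1181 in CQWIN.

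Both clusters were then read gene by gene along the chromosome, over all tested genes within 300 kb. On chromosome 7, AKR1B15, the neighbour of AKR1B10, was called higher in all 4 groups, with log2 fold changes of 1.37 in CDSUM, 1.28 in CDWIN, 1.02 in CQSUM and 1.35 in CQWIN. It gave 0.00865 reads per AKR1B10 read in CDSUM and 0.00654 in DMSO, and since both share sequence, its count is uncertain. Summed with AKR1B10 the log2 fold change was 0.97 in CDSUM, 1.02 in CDWIN, 0.69 in CQSUM and 1.05 in CQWIN. BPGM, bisphosphoglycerate mutase, was called in all 4 groups at 0.99 to 1.12, and AC009275.1, next to AKR1B1 on the same strand, at 1.12 to 1.38. SLC35B4, on the other side, was called in CQWIN, at 0.63, and CALD1 was called lower in CDSUM, at -1.01. Neither was called in the other groups. On chromosome 10, the pseudogene AKR1C7P was called in all 4 groups, at 1.28 in CDSUM, 1.20 in CDWIN, 1.18 in CQSUM and 0.76 in CQWIN. AKR1C7P averaged 3.65 CPM in DMSO. Its likeness to the AKR1C genes was not measured, and whether its count holds reads of theirs was not tested. AKR1E2 (0.22 to 0.25) and AKR1C4 (0.45 to 0.96), which averaged 16.4 and 1.21 CPM in DMSO, were not called in any group. The antisense gene AL391427.1 inside AKR1C2 was called lower in CDSUM (-1.08) and not elsewhere, and LINC02561 was called higher in CQWIN (0.82) and not elsewhere. Without CQWIN library 1, AKR1C7P in CQWIN was at 0.56 (adjusted p = 0.198) and LINC02561 at 0.89 (adjusted p = 0.0706), neither called in edgeR's test, while AKR1B15 (0.90), BPGM (0.76), AC009275.1 (0.80) and SLC35B4 (0.62) were called.

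**Figure D5:**
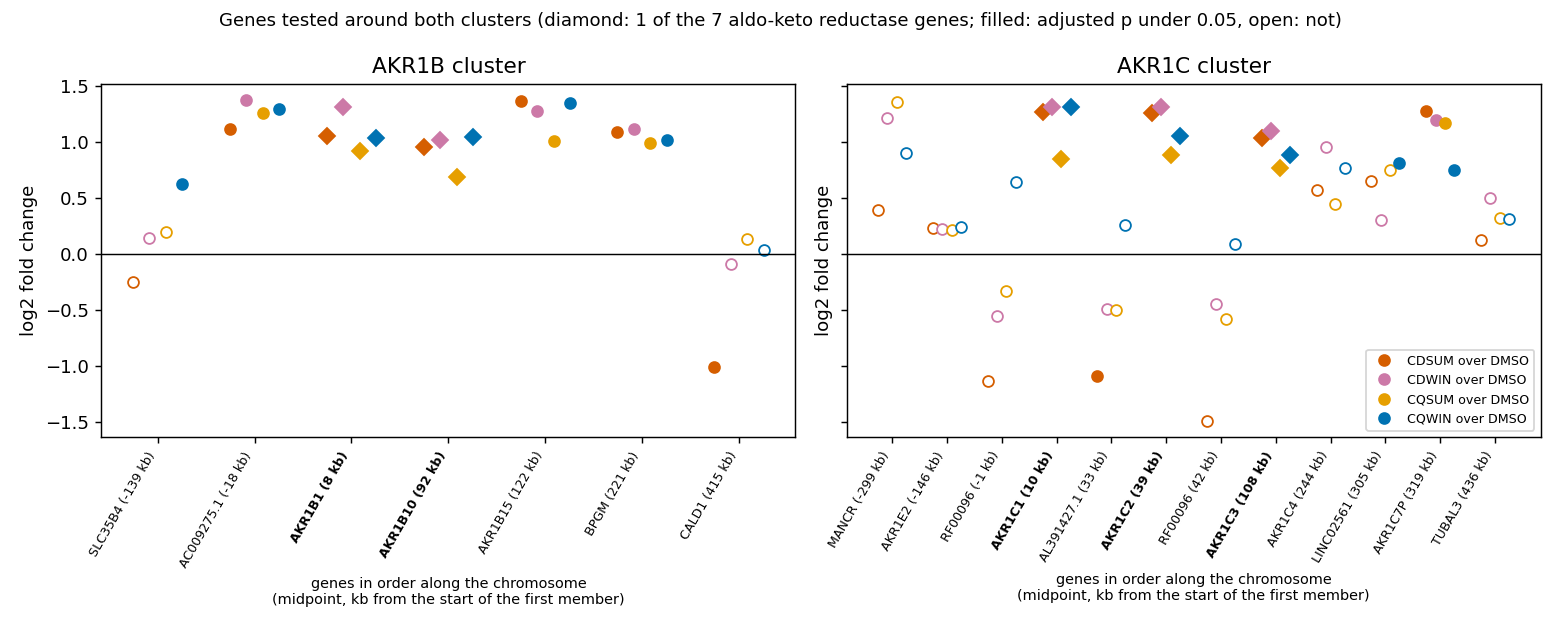
The vertical axis is the log2 fold change over DMSO in the 4 PM2.5 groups, for the tested genes around the AKR1B genes (left) and the AKR1C genes (right) in order along the chromosome, with distances in kb. AKR1B1, AKR1B10, AKR1B15, BPGM and AC009275.1 are filled in all 4 groups, as are the 3 AKR1C members and AKR1C7P, whereas AKR1E2 and AKR1C4 are open.

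Of the 13 other genes of the superfamily, 6 could be tested. AKR1B15 and AKR1C7P were called higher in all 4 groups, and of the other 4, AKR1E2, AKR1C4, KCNAB2 and KCNAB3, none was called higher in any. KCNAB2 was called lower in CQSUM (-0.49), and KCNAB3 in CDWIN (-1.98) and CQSUM (-1.72). KCNAB3 had only 4, 1 and 10 reads in the CDWIN libraries and 7, 6 and 7 in CQSUM, against 33, 16 and 21 in DMSO. Of all genes tested, 5.93% were called higher in all 4 groups, and 23.3% were called lower in CDWIN and 18.8% in CQSUM. The list's median log2 fold change was 0.40 in CDSUM, 0.59 in CDWIN, 0.33 in CQSUM and 0.50 in CQWIN. AKR7A3 and AKR7L, the nearest relatives of AKR7A2, had at most 7 and 8 reads in a library.

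The NRF2 list holds genes that respond to NRF2, NRF2 itself and its regulators, and none of the members. It did not move in 1 direction, and a part of NRF2 in the members' changes was not tested. Of its 25 genes, 7 were called higher and 9 lower in CDSUM, 4 and 9 in CDWIN, 4 and 7 in CQSUM, and 5 and 6 in CQWIN, with medians of -0.24, -0.02, 0.04 and 0.15. Among all genes tested 15.3% were called higher in CDSUM, 18.4% in CDWIN, 13.7% in CQSUM and 11.6% in CQWIN. The shares called lower were 31.2%, 23.3%, 18.8% and 15.8% in the same order. In all 4 groups 4 genes were called higher and 5 lower, with backgrounds of 5.93% and 11.7% of all genes. TXN, thioredoxin, reached 2212 ± 17.2 CPM in CDSUM and 760 ± 124 CPM in DMSO, with log2 fold changes of 0.79 in CQWIN to 1.54 in CDSUM. TXNRD1, thioredoxin reductase, was higher by 0.90 to 0.94. ABCC1, a glutathione-conjugate pump, fell by 1.02 in CQWIN to 1.56 in CQSUM, and OSGIN1 fell by 0.85 in CDSUM to 1.39 in CQSUM. NQO1, a quinone reductase, was called higher in all 4 groups (0.63 to 1.07), and HMOX1, heme oxygenase, was called lower in CDWIN, CQSUM and CQWIN (-0.43, -0.53 and -0.67). NQO1 and HMOX1 were named after their values were seen.

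Enzymes of aromatic hydrocarbon metabolism, whose quinone-forming products the AKR1C enzymes can make, were called higher for 6 of 14 genes in each group, and lower for 2 in CDSUM, 2 in CDWIN, 2 in CQSUM and 0 in CQWIN. The shares of all genes called higher were 15.3%, 18.4%, 13.7% and 11.6% in the same order, and those called lower 31.2%, 23.3%, 18.8% and 15.8%. CYP1A1, the enzyme that oxidises aromatic hydrocarbons first, had 15.7 ± 3.53 CPM in CDSUM, 12.3 ± 2.31 in CDWIN, 10.9 ± 1.71 in CQSUM and 16.4 ± 7.86 in CQWIN, against 0.493 ± 0.329 CPM in DMSO (SD, n = 3 each), the largest change in the lists at log2 4.46 to 5.05. CYP1B1 was higher by 1.82 in CDSUM, 1.94 in CDWIN, 2.26 in CQSUM and 2.65 in CQWIN. TIPARP, a target and repressor of the aryl hydrocarbon receptor, was higher by 2.01, 2.42, 2.62 and 2.82 in the same groups.

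The reactions around the members were followed in 4 further lists. Beside each of them stand the shares of all genes called higher, 15.3% in CDSUM, 18.4% in CDWIN, 13.7% in CQSUM and 11.6% in CQWIN. The shares of all genes called lower were 31.2%, 23.3%, 18.8% and 15.8% in the same order. Of 23 other carbonyl-metabolising enzymes, 6 were called higher and 9 lower in CDSUM, 7 and 6 in CDWIN, 6 and 5 in CQSUM, and 5 and 3 in CQWIN. CBR4, a carbonyl reductase, was higher by 0.90 to 1.10, and ALDH1A3, which makes retinoic acid from retinal, by 0.85 to 1.04. ALDH16A1 fell by 0.75 to 0.96. Of 15 steroid dehydrogenases and reductases, 5 were called higher in CDSUM, 8 in CDWIN, 5 in CQSUM and 7 in CQWIN, and at most 1 lower. HSD17B14 was higher by 1.52 in CDSUM, 1.49 in CDWIN, 1.20 in CQSUM and 1.28 in CQWIN.

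Of 8 genes of prostaglandin synthesis and breakdown, 3 were called higher in CDSUM, 4 in CDWIN, 3 in CQSUM and 3 in CQWIN, with list medians of 0.80, 0.63, 0.69 and 0.82. The 1 gene called lower was PLA2G4A, a phospholipase that frees arachidonic acid, in CDSUM at -1.85. PTGES, which makes prostaglandin E, was higher by 0.73 to 0.91, and HPGD, which breaks prostaglandins down, by 0.82 to 1.16. The cofactor NADPH was represented by 9 genes, of which 1 was called higher in each group, and 3 lower in CDSUM, 2 in CDWIN, 3 in CQSUM and 1 in CQWIN. That gene was IDH1 in every group, at 0.72 in CDSUM, 1.29 in CDWIN, 1.03 in CQSUM and 1.45 in CQWIN.

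The lists were counted again in CQWIN without its library 1. Of the 15989 genes tested in that fit, 864 (5.4%) were called higher and 1647 lower. The NRF2 list then had 2 genes called higher and 6 lower, the other carbonyl enzymes 3 and 1, the aromatic hydrocarbon list 4 and 0, the steroid list 5 and 1, the NADPH list 1 and 1, and the prostaglandin list 2 and 0. The other genes of the superfamily had 1 called higher, AKR1B15. Of the genes named above for these lists, TXN (0.28, adjusted p = 0.395), NQO1 (0.31, adjusted p = 0.2) and HPGD (0.51, adjusted p = 0.0556) were no longer called in edgeR's test. CYP1A1 stood at 4.79, CYP1B1 at 2.78, TIPARP at 2.87, TXNRD1 at 0.74, CBR4 at 0.85, ALDH1A3 at 1.11, HSD17B14 at 0.89, PTGES at 0.79 and IDH1 at 1.12, all called higher. ABCC1 at -0.96, OSGIN1 at -1.05, HMOX1 at -0.63 and ALDH16A1 at -1.13 were called lower.

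For each member the 3 genes with the most similar log2 CPM over the 15 libraries were named, by Pearson's r, as a description of libraries that share 5 groups. AKR1C1 was closest to GLRX, glutaredoxin (r = 0.986), and CTSL, cathepsin L (0.983). AKR1C2 was closest to BLVRA, biliverdin reductase (0.989), and AKR1C3 to TMEM59 (0.987), and TMEM59 and BLVRA were among the 3 closest for both. AKR1B1 was closest to DPY30 (0.985) and AKR1B10 to CYB5B (0.982). HIST1H2AC was among the 3 closest for both AKR1C1 (0.978) and AKR1B10 (0.977). AKR1A1 was closest to CD63 (0.979). AKR7A2 had BCL2L12 (0.954), POLD2 (0.952) and WDR34 (0.945). Across the 12 PM2.5 libraries alone, these values ran from 0.93 to 0.98, and 7 of the 21 pairs were again the closest.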

How the data were processed

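RNA from 15 A549 libraries in 5 groups of 3 was sequenced, and the authors deposited 1 table of 58735 genes. It holds raw counts of reads per gene, FPKM per library, and, for 8 comparisons, the authors' own group means (not used here), log2 fold changes, p-values and adjusted p-values. The deposited FPKM values are the counts per kilobase of gene, scaled by DESeq2 size factors to within 0.00455%. Aligner, counting program and strand setting are not given in the sources used here. Mouse builds GRCm38 and mm10 stand in the submitters' processing notes, whereas all 58735 identifiers are human and have the same start and end in GENCODE release 29, so coordinates are on GRCh38.

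The counts were tested with edgeR 4.0.16 (R 4.3.3): filterByExpr, which kept 15565 of 29725 genes with a read (the rest held 0.0838% of the reads), TMM scaling, 1 coefficient per group, 10 residual degrees of freedom, the quasi-likelihood test and Benjamini-Hochberg adjustment over all genes tested. The SE of a log2 fold change is its size over the square root of F. The common biological coefficient of variation was 20.5%. On simulated counts of 15238 genes for CDSUM against DMSO, the test recovered 78% of genes changed by 1 on the log2 scale and 100% of those changed by 2. Only 100 genes were changed by each size, up and down alike, with no trend of GC content or length. These rates therefore do not describe the real comparison, where 7239 genes were called. Alternatives included DESeq2 1.42.0, other filters, a replicate block, trends of GC content and length (natural splines, 6 degrees of freedom), summed paralogs and leaving out each library.

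Same-numbered libraries deviated together in CQSUM and DMSO, with correlations of 0.191, 0.395 and 0.115 over genes for numbers 1, 2 and 3. The main fit used no pairing, and a replicate block was run only as an alternative. Whether same-numbered libraries belong together is not stated. In the other 7 comparisons of 2 groups at least 1 of the 3 correlations was below 0.1. Named genes are the members, per list up to 4 genes with the same direction of call in each PM2.5 group, by the largest mean change, and the 3 genes most like each member by Pearson's r at a mean of at least 5 CPM. The members, lists and rules were chosen with earlier results of these data known. 1 gene that this rule names is not reported here.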

Additional observations from a re-analysis of the deposited data

How the results depend on the processing

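For single members against DMSO, 646 alternative values kept their side of the threshold, among them 7 that changed sign and were not called with either setting, 42 lost a call and 14 gained one. In the other contrasts 859 stayed on the uncalled side, 95 of them with a change of sign, 10 gained a call with the same sign, and 1 gained a call with a change of sign. That was AKR1C1 in CDWIN against CQWIN, with log2 fold changes from -0.27 (without CQWIN replicate 2) to 0.68 (without CQWIN replicate 1, adjusted p = 0.0278 by edgeR's quasi-likelihood test), against -0.0049 (not called) with all libraries. With the GC and length trends removed, 2 members were called in CQSUM against DMSO in place of 5, and 1 in CDSUM against CQSUM in place of 0. With the same trends from 1 transcript per gene, an alternative chosen after seeing the data, 2 were called in CQSUM against DMSO and 2 in CDSUM against CQSUM, and AKR1C3 was not called in CDWIN (log2 fold change 0.57, adjusted p = 0.0685 by edgeR's quasi-likelihood test). With only the groups compared in the model, 1 member was called in CQWIN against DMSO in place of 5, and 1 in CDSUM against CQSUM. With no filter, 2 were called in CDSUM against CQSUM. The cause was not tested. Leaving out 1 library at a time gave 1 to 6 members called in CQSUM against DMSO (1 without CQSUM replicate 2, 6 without CQWIN replicate 1), 4 to 6 in CQWIN against DMSO, 6 throughout in CDSUM and in CDWIN against DMSO, 0 to 5 in CDWIN against CQWIN (5 without CQWIN replicate 1), and 0 throughout in the other 4 contrasts.

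With the replicate block, 6, 6, 5 and 6 members were called in CDSUM, CDWIN, CQSUM and CQWIN against DMSO, among 7446, 6746, 5382 and 4542 genes called. The one change among members was AKR7A2, called lower in CQWIN at -0.44, and 0 members were called in the other contrasts.

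Counts over all genes moved more. In CQSUM against DMSO, 5063 genes were called, 3067 with the GC and length trends removed, 2568 with those of 1 transcript, and 3049 to 6084 with 1 library left out. In CQWIN against DMSO, 4264 were called, 2496 and 2326 with those trends removed, 2249 with only the groups compared, and 2511 to 6102 with 1 library left out. Leaving out 1 library gave 5357 to 7789 in CDSUM against DMSO, where all libraries gave 7239, and 4792 to 7095 in CDWIN against DMSO, where they gave 6492. In CDWIN against CDSUM, 1310 were called, 545 and 610 with the trends removed, and 554 to 1866 with 1 library left out. In CDSUM against CQSUM, 2156 were called, 1347 with the GC and length trends removed, and 1487 to 2514 with 1 library left out. In CQWIN against CQSUM, 3 were called, 1 with DESeq2 size factors, 42 with no filter, 8 and 7 with the trends removed, 0 with only the groups compared, 11 by DESeq2, and 0 to 11 with 1 library left out. In CDWIN against CQWIN, 2 were called, 1 with DESeq2 size factors, 522 with no filter, 4 with the replicate block, 4 and 4 with the trends removed, 0 with only the groups compared, 42 by DESeq2, and 0 to 1882 with 1 library left out. The difference between the WIN minus SUM changes was called for 315 genes, for 569 with no filter, 82 and 103 with the trends removed, 48 with only the groups compared, 544 by DESeq2, and 0 to 883 with 1 library left out.

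With levels per kilobase of 1 transcript, also chosen after seeing the data, 3 of 7 members held the same rank as by FPKM in DMSO, 3 in CDSUM and 3 in CQWIN. Of the 21 pairs of a member and a gene most alike, 7 were shared when Spearman's rho was used and 7 when only the 12 PM2.5 libraries were used. The summed genes, the gene lists and the neighbours without CQWIN replicate 1 were added after seeing the data as well.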
